A study of Mus musculus with 20 samples.

Results

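Transient GATA6-only regions in facultative heterochromatin are 1742 of the 42403 regions bound by GATA6 in induced mouse ES cells or XEN cells. They were chosen from the authors' own classes. GATA6 binding was transient by k-means of the ChIP signal over all time points, no SOX17 peak and no peak of the pluripotency TFs OCT4, SOX2 or ESRRB overlapped the region, and the histone marks of undifferentiated ES cells placed it in facultative heterochromatin. These classes rest on binding and marks, so their values are not results here. The SOX17 and pluripotency TF classes rest on called peaks, so a member can still hold binding too weak to be called. Accessibility was not part of the rule.

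Accessibility was measured by ATAC-seq, where exposed DNA is cut and tagged by a transposase, in 20 samples. Of these, 17 came from KH2 ES cells (C57BL/6 x 129/Sv), all carrying a doxycycline-inducible Gata6 transgene and grown on feeder fibroblasts that were removed by adsorption: d0 without doxycycline (3 samples), 8 h (3), 16 h (3), day 1 (3), day 2 (3) and day 4 (2) of doxycycline. The other 3 were XEN cells (X10, CD1 strain), an established line of extraembryonic endoderm, also grown on feeders but without LIF, and not induced. XEN and KH2 cells thus differ in strain, origin and medium as well as in identity. The times are those of the sample titles. The treatment labels instead give 16, 24, 48 and 72 h of doxycycline to the samples titled as 8 h, 16 h, day 1 and day 2, and 96 h to day 4.

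GATA6 is a zinc finger TF that drives primitive endoderm, the extraembryonic lineage represented by XEN cells, and it recognises sites with a GATA core in closed as well as in open chromatin. Facultative heterochromatin is the reversibly silenced chromatin marked by Polycomb, best known in ES cells for covering genes of later development. A transient site is one that GATA6 occupies early and leaves as differentiation advances.

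To show what GATA6 met at these regions, the named members with the highest GATA6 motif score are printed, as 101 bases around the best match of the GATA6 matrix, read from the mm10 reference (GRCm38) 5′ to 3′ on the strand of the match. Capitals mark the 13 bases of the match.

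Esrrb region, chr12:86364639-86364739, minus strand: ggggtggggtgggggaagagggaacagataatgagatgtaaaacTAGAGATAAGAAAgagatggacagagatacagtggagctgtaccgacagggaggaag
Sfrp5 region, chr19:42215303-42215403, plus strand: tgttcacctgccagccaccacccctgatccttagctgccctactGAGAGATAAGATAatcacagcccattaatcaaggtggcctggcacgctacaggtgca
Cdrt4 region, chr11:62930001-62930101, minus strand: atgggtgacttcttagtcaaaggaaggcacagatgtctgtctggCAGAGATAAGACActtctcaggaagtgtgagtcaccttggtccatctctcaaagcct
Etnppl region, chr3:130615895-130615995, minus strand: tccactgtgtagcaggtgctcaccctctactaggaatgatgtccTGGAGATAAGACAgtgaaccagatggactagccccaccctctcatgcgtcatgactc
Fgf20 region, chr8:40098152-40098252, plus strand: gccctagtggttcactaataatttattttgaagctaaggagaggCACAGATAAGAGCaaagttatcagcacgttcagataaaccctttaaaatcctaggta
Mgl2 region, chr11:70126373-70126473, plus strand: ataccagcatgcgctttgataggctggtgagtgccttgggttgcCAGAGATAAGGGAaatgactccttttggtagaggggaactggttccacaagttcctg
Wnt7b region, chr15:85603930-85604030, minus strand: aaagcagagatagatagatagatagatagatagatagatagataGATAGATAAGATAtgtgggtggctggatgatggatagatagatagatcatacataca
Sox6 region, chr7:115941890-115941990, minus strand: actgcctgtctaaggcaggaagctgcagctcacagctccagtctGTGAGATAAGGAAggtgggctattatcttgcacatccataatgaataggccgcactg

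In these 8 matches the core AGATAA starts at base 4. The Wnt7b match lies in a run of GATA repeats. Each of the 8 windows holds 1 or 2 copies of AGATAA over both strands. The same window is also given for 3 members with large gains at day 4, added after their values were seen.

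Slc34a2 region, chr5:53059490-53059590, minus strand: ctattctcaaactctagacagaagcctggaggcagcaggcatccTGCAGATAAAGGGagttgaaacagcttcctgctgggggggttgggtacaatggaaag
Oog4 region, chr4:143434682-143434782, minus strand: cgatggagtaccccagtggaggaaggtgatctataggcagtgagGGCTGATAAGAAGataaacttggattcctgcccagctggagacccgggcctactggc
Ptpn21 region, chr12:98684041-98684141, plus strand: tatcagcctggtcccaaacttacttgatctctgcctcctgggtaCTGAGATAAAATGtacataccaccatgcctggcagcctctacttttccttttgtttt

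The motif scores of these 3 were 8.71, 11.9 and 9.41, against 14.9 for the Esrrb region, and the Oog4 match carries TGATAA in place of AGATAA. Counted on both strands of the 201 bases around each GATA6 summit, AGATAA was present in 1272 of 1742 members (73.0%) and in 54.3% of all regions. The share was 57.6% in Late GATA6-only regions of facultative heterochromatin, 76.2% in Transient GATA6-only regions without marks, and 56.3% in Transient GATA6-only regions at ES cell enhancers. The best match lay a median of 36.0 bp from the summit in the members and 51.0 bp in all regions. This distance was 39.0 bp in the Late regions, 41.0 bp in the unmarked and 39.0 bp in the enhancer regions. The median GC content was 45.3% in both.

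In the deposited motif scores, the median best GATA6 motif score was 11.6 in the members and 10.2 in all regions, and the authors' highest score class held 765 members (43.9%) against 26.8% of all regions. Only 64 members (3.67%) had no match, against 10.3% of all regions. A match to the OCT4:SOX2 motif was present in 1227 members (70.4%, all regions 71.5%) and one to the SOX17 motif in 981 (56.3%, all regions 69.2%), although neither factor had a peak there.

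Most members lay far from promoters. By protein-coding genes of GENCODE vM21, 937 summits (53.8%) were intergenic, 712 (40.9%) intronic and 53 (3.04%) within 1000 bp of a transcription start, against 46.0%, 42.1% and 9.45% of all regions. The median distance to the nearest start was 28.1 kb, against 16.3 kb. Members were narrow, with a median width of 400 bp (all regions 525 bp), and scattered: 227 of 1742 had another member within 50 kb, and 1248 of the 1469 nearest genes had 1 member only. The gene with the most members was Tbx3, with 5. Chromosome X held 16 members, 0.918% of them, against 2.92% of all regions.

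The members were nearly closed before induction. The authors' accessibility class at d0 was closed for 1665 (95.6%) and moderate for 77, and none was in the accessible class, against 61.3% closed in all regions. Per kb of region, the median at d0 was 0.109 RPM in the members and 0.142 RPM in all regions. It was 0.0797 RPM in Late GATA6-only regions of facultative heterochromatin. Transient GATA6-only regions had 0.0802 RPM without marks and 0.221 RPM at ES cell enhancers.

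RPM values not divided by width are used from here on, since each region is compared with itself. Group values are the authors' averages and carry no SD. Whole reads of 16 single libraries were recovered from these averages for all groups but d0, at 24753 regions of which 1070 are members. The letters of libraries are arbitrary and tie none to a labelled sample. These regions are those whose values kept more than 12 digits in the table, which depends on their place in it and not on their level, so that several chromosomes, among them 3 and X, have no member in the fit. The libraries held 546951 to 2023651 reads in these regions, apart from a small XEN library of 179140, but few at any one member: the median member had 6.00 to 16.0 reads in a library, 2 in the small XEN library, and the lowest had 0. For XEN cells the reads of 2 libraries were found, fewer than the 3 labelled samples. Regions nearest to 9 primitive endoderm and XEN marker genes had a median log2 change against d0 of 1.41 at day 4 and 0.88 in XEN cells, those nearest to 8 ES cell markers 0.01 and -0.35, and the 12 regions nearest to feeder markers 0.02 and 0.35.

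To follow the members through induction, their levels were compared with d0. Going from d0 through 8 h, 16 h, day 1 and day 2 to day 4, the median member stood at 0.0445, 0.0501, 0.0526, 0.0609, 0.0654 and 0.0492 RPM, and the XEN median was 0.0658 RPM. In bulk samples a change in a part of the cells and a smaller one in all of them cannot be told apart. In the averages the level was highest at day 2 among the induced cells and close to that of d0 again at day 4. On the scale log2(RPM + 0.03), which understates the change of low regions, single members differed from d0 by a median of 0.10 (8 h), 0.16 (16 h), 0.30 (day 1), 0.33 (day 2), 0.06 (day 4) and 0.35 (XEN). Over all regions the same medians were 0.03, 0.11, 0.31, 0.69, 0.52 and 0.40. Up to day 1 members and all regions had similar medians, and at day 2 and day 4 the members were behind by 0.36 and 0.46.

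**Figure D1:**
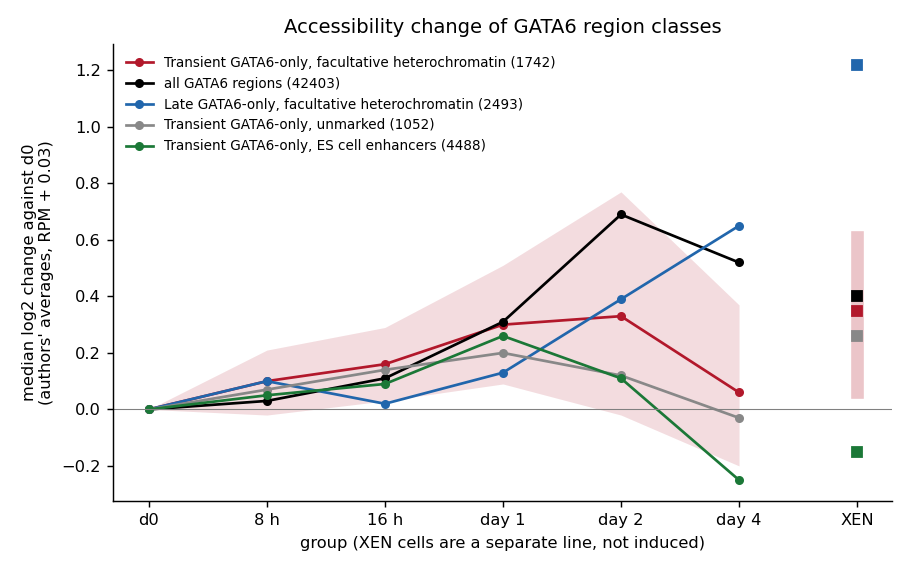
Median log2 change of accessibility against d0 (vertical axis, authors' averages in RPM plus 0.03) by group (horizontal axis) for the 1742 members in red, all 42403 regions in black and 3 other classes of GATA6-only regions; the pale band and bar span the quartiles of the members, squares mark XEN cells. The members reach 0.33 at day 2 and 0.06 at day 4, whereas Late GATA6-only regions of facultative heterochromatin reach 0.65 at day 4 and 1.22 in XEN cells.

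Other classes of GATA6-only regions are given for comparison. The 2493 Late GATA6-only regions in facultative heterochromatin had median changes of 0.13, 0.39, 0.65 and 1.22 for day 1, day 2, day 4 and XEN. Of the Transient regions in other chromatin, the 1052 without marks had 0.20, 0.12, -0.03 and 0.26, and the 4488 at ES cell enhancers 0.26, 0.11, -0.25 and -0.15. From day 2 to day 4 the median change was -0.29 in the members, 0.20 in the Late regions, -0.19 in the unmarked and -0.43 in the enhancer regions. These differences between classes were not tested, since regions of a class are not replicates.

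Few members passed a 2-fold change in the averages, for which there is no replicate check. At 8 h and at 16 h it was 0 of 1742. At day 1, 44 members (2.53%) were higher and 0 lower, against 4.55% and 0.00707% of all regions. By day 2 there were 288 higher (16.5%) and 3 lower (0.172%), against 36.8% and 1.41%. At day 4 these numbers were 70 higher (4.02%) and 9 lower (0.517%), against 31.0% and 7.27%, and in XEN cells 98 higher (5.63%) and 1 lower (0.0574%), against 27.7% and 8.83%. From day 1 on, the share of members past 2-fold was below that of all regions, for gains and for losses.

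The balance of gains and losses depends on the scale, because the median of all regions itself shifted, by 0.03 (8 h), 0.16 (16 h), 0.39 (day 1), 0.83 (day 2), 0.56 (day 4) and 0.49 (XEN). Relative to that median, 2 members were 2-fold higher and 0 lower at day 1, 48 higher and 264 lower at day 2, 16 higher and 173 lower at day 4, and 7 higher and 45 lower in XEN cells. The median change of the members on this scale was -0.50 both at day 2 and at day 4. These centred counts were not made over all regions. In the limma calls on centred libraries described below, falls at day 2 were 19.3% of members and 13.6% of all regions. At day 4 they were 15.0% and 15.6%.

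The share of the members in the reads of all regions of a library is a relative measure of the same kind. It was 2.04%, 1.53% and 1.58% in the 8 h libraries (1.72% ± 0.281, SD, n = 3), 1.69% ± 0.121 at 16 h (n = 3) and 1.59% ± 0.0603 at day 1 (n = 3). At day 2 it was 1.33%, 1.09% and 1.20% (1.21% ± 0.120, n = 3), and at day 4 it was 1.07% in both libraries. The day 2 and day 4 libraries were all below the lowest library of 8 h, 16 h and day 1. In XEN cells it was 1.54% in the large library and 1.96% in the small one. In the averages over all 1742 members the share went from 1.46% (d0) and 1.64% (8 h) to 1.18% (day 2) and 1.04% (day 4), with 1.62% for XEN. The summed level of the members was itself 93.4 RPM (d0), 165 RPM (day 2) and 110 RPM (day 4), while that of all regions was 6408, 14053 and 10635 RPM, so the share was lower at day 2 and day 4 although the members' own sum was higher than at d0.

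In single libraries the median member had 0.0609, 0.0564 and 0.0332 RPM at 8 h, 0.0682, 0.0527 and 0.0418 RPM at 16 h, and 0.0536, 0.0755 and 0.0607 RPM at day 1. At day 2 the values were 0.0656, 0.0667 and 0.0678 RPM, at day 4 they were 0.0477 and 0.0481 RPM, and in XEN cells 0.0555 and 0.0693 RPM. The day 2 libraries did not stand above all those of 16 h and day 1, which reached 0.0682 and 0.0755 RPM. Each of the day 2 libraries was above each of the 8 h and day 4 libraries, whereas the 8 h and day 4 libraries overlapped and 1 of the 8 h libraries stood at a lower level than the others. The last point holds for all regions as well, at 0.0570 RPM in that library against 0.0938 and 0.103 RPM in the other two.

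**Figure D2:**
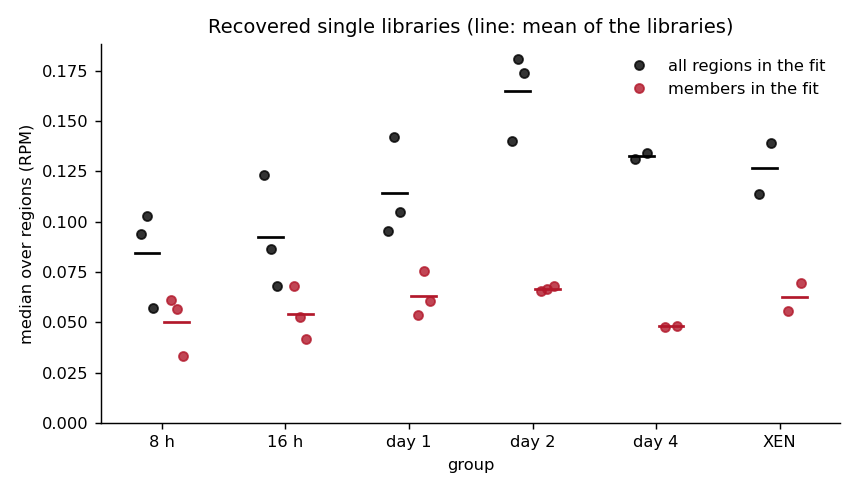
Median accessibility (RPM, vertical axis) of the 1070 members (red) and all 24753 regions (black) in each recovered library, by group (horizontal axis); a point is a library and a line the mean of the libraries. Members lie between 0.0656 and 0.0678 RPM in the day 2 libraries and at 0.0477 and 0.0481 RPM in the day 4 libraries, and the 8 h libraries spread from 0.0332 to 0.0609 RPM.

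The libraries allowed a test with 8 h as the baseline, by limma over all 24753 regions with Benjamini-Hochberg adjustment. A region was called at an adjusted p under 0.05 and a log2 change above 1. At 16 h 0 of 1070 members were called and 51 had an unadjusted p under 0.05, with 2 of 24753 regions called, 1 in each direction, and 1597 at that unadjusted p. At day 1, 26 members (2.43%) rose and 0 fell, against 5.98% and 0.0162% of all regions, and with the own variance of each region, an alternative chosen after seeing the data, 0 rose. By day 2, 159 members (14.9%) had risen and 8 (0.748%) fallen, against 36.9% and 1.15%. At day 4, 36 members (3.36%) were called as rises and 19 (1.78%) as falls, against 30.5% and 6.59%. The number of falls depended on the 8 h libraries: without library c, that of lowest level, 21 members fell at day 2 and 43 at day 4, without library b 4 and 12, and without library a the rises at day 4 were 59. The median change of the members was 0.21 at day 1, 0.21 at day 2 and 0.00 at day 4, with 0.30, 0.67 and 0.51 over all regions.

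From day 2 to day 4 directly, 77 members (7.2%) fell and 0 rose, against 10.1% and 2.10% of all regions, with a median change of -0.29 in the members and -0.23 in all regions. With the variance of each region by itself in place of the one that limma shared over regions, 4 members fell. Without either of the day 4 libraries 12 fell, without day 2 library b 34 and without day 2 library c 32. The comparisons with 8 h share their baseline, and that with day 2 shares libraries with both.

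In XEN cells, 35 members (3.27%) were called higher than at 8 h and 5 (0.467%) lower, against 24.3% and 8.23% of all regions. Against day 4, 47 members (4.39%) were called higher and 18 (1.68%) lower, against 5.52% and 13.6%. The median change from day 4 to XEN cells was 0.25 in the members and -0.14 in all regions. These XEN counts rest on single libraries. Without the small XEN library 12 members were higher and 3 lower than at 8 h, and 4 higher and 7 lower than at day 4. Without the large one 110 were higher than at 8 h and 10 lower than at day 4. Without 8 h library a, b or c the numbers higher than at 8 h were 64, 52 and 22 and those lower 5, 1 and 15, and without day 4 library a or b 11 were higher than at day 4 in either case and 10 and 5 lower. A read in the small XEN library is worth 0.0231 RPM, against 0.00347 RPM in the other, and the read added to each region puts the floor of the XEN average at 0.0133 RPM, against 0.00460 to 0.00518 RPM in the KH2 averages.

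**Figure D3:**
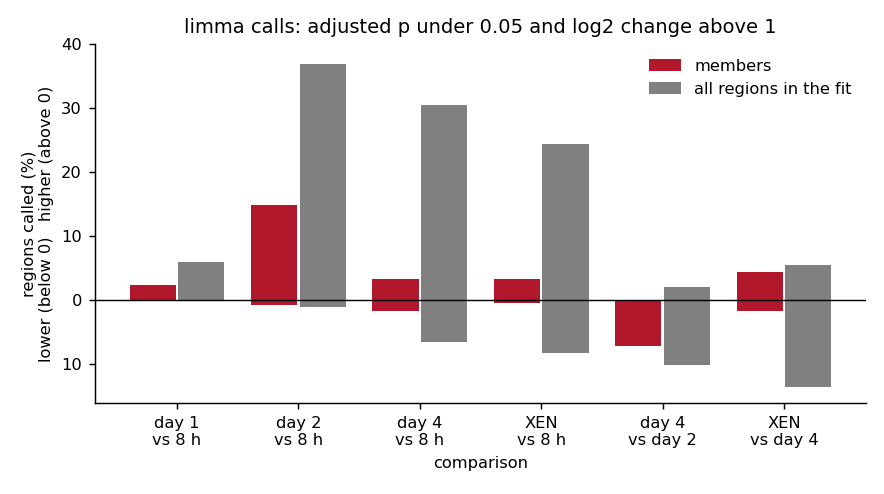
Share of regions called by limma (vertical axis, percent; gains above 0 and losses below 0) in 6 comparisons (horizontal axis) among the 1070 members (red) and all 24753 regions (grey). On the scale of the deposited RPM plus 0.03 shown here, the share of members is below that of all regions in each bar pair. Gains at day 2 are 14.9% against 36.9%.

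At day 1 the calls were also decided by single libraries: 3 members rose without 8 h library c and 1 without day 1 library b, that of highest level, whereas 41, 44 and 59 rose without 8 h library a, 8 h library b and day 1 library a. With each library centred on its median, the calls were 3 rises and 6 falls at day 1, 31 and 207 at day 2, 15 and 160 at day 4, and 5 and 40 in XEN cells against 8 h, 2 and 23 from day 2 to day 4, and 69 and 16 from day 4 to XEN cells. On this scale falls at day 1 and day 2 were more frequent among members than among all regions, with 0.561% against 0.335% and 19.3% against 13.6%, and at day 4 they were 15.0% against 15.6%. Rises were 0.280% against 1.37% at day 1, 2.90% against 14.0% at day 2 and 1.40% against 16.2% at day 4. Gains were then 13.0% of the calls among members at day 2 in place of 95.2%, and 8.57% at day 4 in place of 65.5%.

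The region with the largest rise at day 4, chr9:62008305-62008938, lies in an intron of Paqr5, a membrane progestin receptor gene, 18.3 kb downstream of its start, and is 1 of the members without a GATA6 motif match. It had 0.0908 RPM at d0. The 8 h libraries had 0.164, 0.146 and 0.0617 RPM, those of day 2 had 0.586, 1.04 and 0.944 RPM, those of day 4 had 0.693 and 0.615 RPM, and the XEN libraries 0.184 and 0.0923 RPM. Its day 2 and day 4 libraries did not overlap with those of 8 h, 16 h, day 1 or XEN cells. The log2 change against 8 h was 2.56 (SE 0.323, limma adjusted p = 5.92e-14) at day 2 and 2.22 (SE 0.361, adjusted p = 1.36e-08) at day 4, and from day 4 to XEN cells it was -2.08 (SE 0.396, adjusted p = 1.21e-05). limma estimated 1 variance for all regions, so that the SE is the same for each region in a comparison.

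Slc34a2, which encodes a sodium-phosphate cotransporter, has a member in an intron 10.2 kb downstream of its start, at chr5:53059377-53059897. This region had 0.0929 RPM at d0. It had 0.15, 0.122 and 0.0475 RPM in the 8 h libraries, 0.184, 0.355 and 0.237 RPM on day 1, 0.524, 1.05 and 1.03 RPM on day 2, 0.568 and 0.476 RPM on day 4, and 0.218 and 0.0693 RPM in XEN cells. It is 1 of the members already called at day 1 (log2 change 1.12, limma adjusted p = 0.0133), a call lost with the own variance of each region and with a pseudocount of 0.15 RPM, with changes of 2.74 at day 2 (adjusted p = 9.04e-16) and 2.10 at day 4 (adjusted p = 9.04e-08). In XEN cells the change against 8 h was 0.29 (adjusted p = 0.553), below the threshold.

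The next rises in size at day 4 were at Oog4, Ptpn21, Htra1 and Adgrl3. The Oog4 region (chr4:143434162-143434903, intergenic) had 0.117, 0.0517 and 0.0380 RPM at 8 h, 0.380, 0.529 and 0.436 RPM on day 2, 0.342 and 0.395 RPM on day 4, and 0.101 and 0.139 RPM in XEN cells. The summit of chr12:98683604-98684137 lies inside Ptpn21, a tyrosine phosphatase gene, 68 bp upstream of the start of an annotated transcript. Its values were 0.0984, 0.0799 and 0.0427 RPM at 8 h, 0.197, 0.457 and 0.421 RPM on day 2, and 0.296 and 0.385 RPM on day 4. Neither the day 2 nor the day 4 libraries of these regions overlapped with those of 8 h. The log2 change at day 4 was 2.09 for Oog4 and 1.87 for Ptpn21. It was 1.86 for the region near Htra1, which encodes a secreted serine protease, and 1.76 for that in an intron of Adgrl3, an adhesion GPCR gene, where the 8 h libraries held 1, 2 and 2 reads (limma adjusted p of the 4 regions between 1.02e-07 and 8.62e-06).

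Among the 4 largest rises at day 2 are Slc34a2 and Paqr5 again, with regions in introns of Iqca (log2 change 2.52, limma adjusted p = 1.46e-13) and of Rgs12, a regulator of G-protein signalling (2.44, adjusted p = 1.03e-12). For Iqca, the 8 h libraries had 0.0375, 0.0376 and 0.0712 RPM, those of day 2 had 0.319, 0.538 and 0.412 RPM, and those of day 4 had 0.186 and 0.246 RPM. From day 2 to day 4 the change of this region was -0.86 (adjusted p = 0.0932) and did not pass the test.

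The largest fall at day 4 was at chr11:70125897-70126959, an intergenic region 3.92 kb upstream of Mgl2, a macrophage lectin gene, whose GATA6 match is printed above. It had 0.161 RPM at d0. Its values were 0.230, 0.226 and 0.0949 RPM at 8 h, 0.309, 0.182 and 0.157 RPM at 16 h, 0.153, 0.244 and 0.138 RPM on day 1, 0.0568, 0.0715 and 0.0484 RPM on day 2, 0.0402 and 0.0107 RPM on day 4, and 0.125 and 0.208 RPM in XEN cells. All libraries of day 2 and day 4 were below all others. The change against 8 h was -1.20 at day 2 (limma adjusted p = 0.000718) and -1.92 at day 4 (adjusted p = 1.03e-06), and XEN cells were above day 4 by 1.84 (adjusted p = 0.000128).

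The region 21.1 kb upstream of Cdrt4, with the second largest fall, had 0.259 RPM at d0. It had 0.375, 0.550 and 0.304 RPM at 8 h, 0.284, 0.152 and 0.184 RPM on day 2, and 0.0955 and 0.112 RPM on day 4, so that the day 4 libraries were below all others (change at day 4 -1.68, limma adjusted p = 2.22e-05). The region 269 kb downstream of Irx1, which encodes a homeobox TF, had 0.0891, 0.136 and 0.0760 RPM at 8 h, 0.105, 0.0762 and 0.126 RPM on day 2, and 0.0100 and 0.0374 RPM on day 4. Its change was 0.03 at day 2 (adjusted p = 0.949) and -1.30 at day 4 (adjusted p = 0.00125), and without day 4 library a it was -0.93 and no longer called. The other 3 of the 6 largest falls lay near Trabd2b, a protease that acts on Wnt proteins (-1.32, not called with the own variance of the region), Opcml, a neuronal adhesion protein (-1.32), and Apba2, a neuronal adaptor (-1.30, and -0.65 without day 4 library a, which had 2 reads there against 14 in the other).

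**Figure D4:**
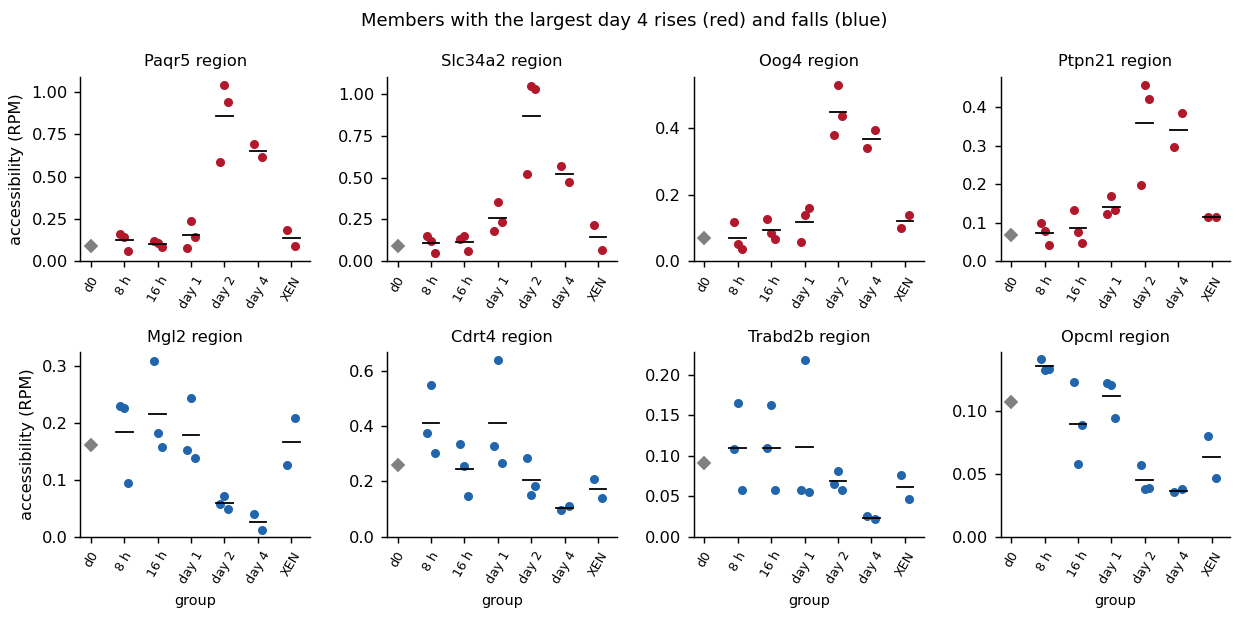
Accessibility (RPM, vertical axis) by group (horizontal axis) of the 4 members with the largest rises (red) and the 4 with the largest falls (blue) at day 4 against 8 h; a point is a recovered library, a line the mean of the libraries and the grey diamond the authors' average at d0. In the Paqr5 region the day 4 libraries are at 0.693 and 0.615 RPM and the XEN libraries at 0.184 and 0.0923 RPM, and in the Mgl2 region the XEN libraries, at 0.125 and 0.208 RPM, are near the level of 8 h.

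The 4 members with the highest level per kb at d0 were in introns of Hebp1 (0.373 RPM per kb) and Fgf10 (0.367), in an exon of Lmf1 nearest to the start of Gng13 (0.319) and near Etnppl (0.319). In the averages the Fgf10 region had 0.113 RPM (d0), 0.402 RPM (day 2), 0.114 RPM (day 4) and 0.0358 RPM (XEN), a change of 1.60 at day 2 and of 0.01 at day 4, and the Gng13 region had 0.137, 0.766, 0.319 and 0.0890 RPM. The Hebp1 region stayed between 0.133 and 0.252 RPM in all averages, and was not called in any comparison. Reads of single libraries were recovered for this one of the 4 only.

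GATA6 binding after Oct4 knockdown, an assay at day 2 that the rule did not use, gives another grouping of the members. The authors classed binding as decreased on knockdown at 96 members (5.51%), unchanged at 1646 and increased at 0, against 6.25%, 85.2% and 8.57% of all regions. Increased binding was also rare in the other Transient classes, at 0 regions without marks and 10 (0.223%) at ES cell enhancers. In the Late regions of facultative heterochromatin it was found at 152 (6.10%). The 96 members had median changes of 1.11 (day 2), 0.27 (day 4) and 0.28 (XEN), and the 1646 had 0.30, 0.05 and 0.36. By limma, 29 of the 60 tested members with decreased binding rose at day 2 (48.3%), against 130 of 1010 (12.9%). The former were also more accessible at d0 (median 0.0598 RPM against 0.0441 RPM) and wider (470 bp against 397 bp), and the part of level and width in this was not tested. Over all regions the classes had 1.21 and 0.61 at day 2, so members and all regions had the same order. So did the Late regions of facultative heterochromatin (1.66 and 0.38) and the Transient regions without marks (0.50 and 0.10) and at ES cell enhancers (1.02 and 0.09). The Fgf10, Gng13 and Wnt7b regions belong to the decreased class.

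By GATA6 motif score the medians lay close together. At day 2 the median change was 0.32 in the 765 members of the high score class, 0.33 in 610 of the middle class, 0.35 in 303 of the low class and 0.31 in the 64 without a match, and at day 4 it was 0.05, 0.07, 0.05 and 0.13. Members with AGATAA in the 201 bases had 0.32 and 0.05, those without 0.34 and 0.09. The share called higher at day 2 was 12.4% in the high, 15.9% in the middle, 17.7% in the low class and 22.9% (8 of 35) without a match. In the averages the shares 2-fold higher at day 2 were, in this order, 13.2%, 18.4%, 19.5% and 25.0% of members. Over all regions they were 36.1%, 38.6%, 36.7% and 33.3%, without that order. The median width of the members fell along the same classes, from 421 to 397, 366 and 342 bp, and the part of width in this was not tested.

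**Figure D5:**
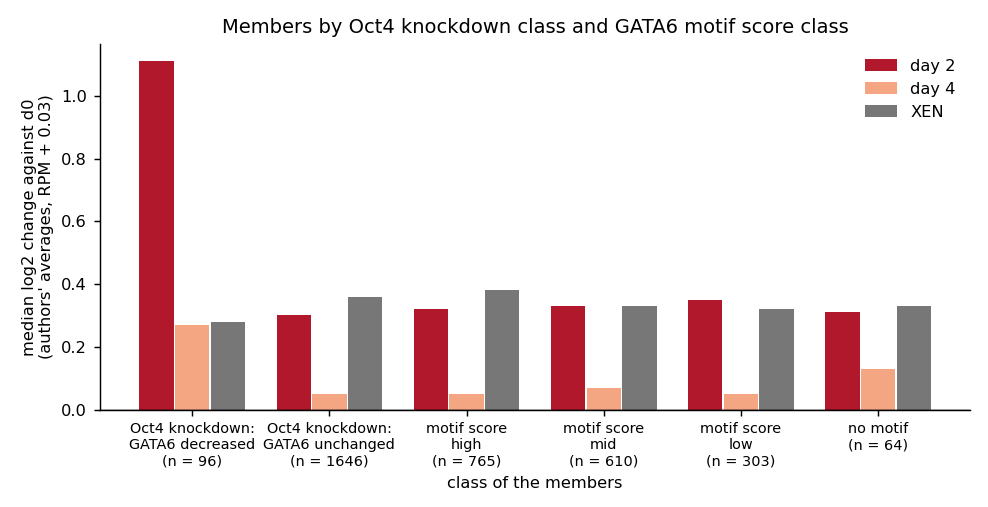
Median log2 change against d0 (vertical axis, authors' averages in RPM plus 0.03) of the members at day 2, day 4 and in XEN cells, by the class of GATA6 binding after Oct4 knockdown and by GATA6 motif score class (horizontal axis, number of members in brackets). Members with decreased binding stand at 1.11 at day 2 and 0.27 at day 4, and the 4 motif classes lie between 0.31 and 0.35 at day 2.

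Developmental TFs, listed by gene family because Polycomb is known to cover many of them in ES cells, were nearest to 41 members at 28 genes. Coverage of the single genes was not checked. These members had median changes of 0.17 (day 2), 0.04 (day 4) and 0.30 (XEN), against 0.33, 0.06 and 0.35 in all members. In the libraries, 3 of 26 rose at day 2 and 0 fell, where 14.9% of all tested members and 36.9% of all tested regions rose. At day 4 the Irx1 region fell. Of all 623 regions nearest to these TFs, 236 were 2-fold higher at day 2 in the averages, against 4 of the 41 members. One of the rises lies 118 kb upstream of Sox9, a TF of cartilage and of several endodermal organs. That region had 0.0891, 0.0423 and 0.0285 RPM at 8 h, 0.214, 0.243 and 0.242 RPM on day 2, and 0.100 and 0.0802 RPM on day 4, with the day 2 libraries above all others. Its change was 1.72 at day 2 (limma adjusted p = 6.22e-07) and -1.13 from day 2 to day 4 (adjusted p = 0.0208). In an intron of Sox6, another SOX family TF, the change at day 4 was -0.86 (adjusted p = 0.0387), short of the required size.

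Tbx3, a T-box TF that is expressed in ES cells and in primitive endoderm, has 5 members between 21.8 and 138 kb upstream of its start. The nearest one, chr5:119648550-119649233, had 0.159, 0.165 and 0.0712 RPM at 8 h, 0.157, 0.315 and 0.237 RPM on day 1, 0.315, 0.553 and 0.441 RPM on day 2, 0.136 and 0.171 RPM on day 4, and 0.128 and 0.115 RPM in XEN cells. It rose by 1.55 at day 2 (limma adjusted p = 7.84e-06) and fell by 1.32 from day 2 to day 4 (adjusted p = 0.00585). The member 126 kb upstream was not called (0.23 at day 2, adjusted p = 0.576, and -0.51 at day 4, adjusted p = 0.244). In the averages the other 3, at 69.1, 75.1 and 138 kb, had changes of 0.10 to 0.67 at day 2 and of -0.23 to 0.17 at day 4.

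Pluripotency genes were nearest to 11 members, 5 of them at Tbx3, which is also among the developmental TFs, 3 at Sox2, 2 at Esrrb and 1 at Zfp42, which encodes the ES cell marker REX1. Of the 8 tested by limma, the Tbx3 region above was the 1 called at day 2, and 0 were called at day 4. Rises at day 2 and day 4 were 14.9% and 3.36% of all tested members, and 36.9% and 30.5% of all tested regions. Of all 206 regions nearest to pluripotency genes, 63 were 2-fold higher at day 2 in the averages, against 1 of the 11 members. The Esrrb region printed above had 0.173, 0.146 and 0.0570 RPM at 8 h, 0.0699, 0.105 and 0.0726 RPM on day 2, and 0.0653 and 0.0855 RPM on day 4, which overlap, with a change of -0.48 at day 4 (adjusted p = 0.280). The Zfp42 region had averages of 0.0258 RPM (d0), 0.0553 RPM (day 4) and 0.0722 RPM (XEN), and its change against 8 h in XEN cells was 0.86 (adjusted p = 0.0435), short of the required size.

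Signalling ligands and antagonists were nearest to 9 members at 8 genes, of which 2 were tested and 0 called at day 2 or day 4. Of all 201 regions nearest to this list, 85 were 2-fold higher at day 2 in the averages, against 2 of the 9 members. In the averages, the region in an intron of Bmp1, a protease that processes collagen and BMP antagonists, had 0.15 RPM (d0), 0.486 RPM (day 2) and 0.303 RPM (day 4). The Wnt7b region had 0.0769, 0.0327 and 0.0420 RPM at the same groups, and that of Sfrp5, a Wnt antagonist, had 0.337, 0.486 and 0.230 RPM. The region near Fgf20 had a change of 0.76 at day 2 (limma adjusted p = 0.0394), short of the required size. Primitive endoderm genes had 1 member among the 293 regions nearest to them. It lies in an intron of Nid1, a basement membrane gene, with averages of 0.0583 RPM (d0), 0.0723 RPM (day 4) and 0.131 RPM (XEN), and a change of 0.93 in XEN cells against 8 h (adjusted p = 0.0287), also short of the required size.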

How the data were processed

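ATAC-seq of induced KH2 ES cells and XEN cells was read from 1 deposited table of 42403 regions and 105 columns. The 7 ATAC columns are RPM values that the authors averaged over the replicates of a group and did not divide by width. The 52 columns of single samples of other assays were not used. The submitters' processing notes name bcl2fastq, cutadapt, Bowtie2, SAMtools and the mm10 genome, and counting was done with bamsignals per the methods of the study. Classes and motif scores are those the authors deposited.

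From the digits of the averages, whole reads of 16 libraries were recovered (numpy 2.4.6, pandas 2.3.3, numba 0.67.0, Python 3.11.15), by a procedure tested on simulated data. The lowest values fit 1 read added by the authors per region and library. At d0 no set of libraries gave whole reads. Regions with more than 12 significant digits (24753) entered limma 3.58.1 (R 4.3.3) on log2(RPM + 0.03), all groups in 1 fit, with Benjamini-Hochberg adjustment over all of them. The averages against d0 have no test. These regions held 546951 to 2023651 reads per library and 179140 in 1 XEN library, and counting error is large at a median of 2 to 16.0 reads per member. The single libraries are separate samples by their labels and, per the methods of the study, separate cultures.

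Alternatives were pseudocounts of 0.006 and 0.15 RPM, centring on the median, quantile normalisation, a filter at the 10th percentile, subtraction of the lowest value, members with recovered reads alone, leaving out each library, a mean-dependent prior, no minimum change and fits of the groups compared alone. The own variance of each region and the addition of regions whose values were shortened to 7 digits were chosen after seeing the data.

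Nearest genes are protein-coding genes of GENCODE vM21, and promoters lie within 1000 bp of a start. A start is that of any annotated transcript of such a gene, so it can lie inside the gene. Named regions are the 6 largest rises and 6 largest falls called at day 4, the 4 largest rises at day 2, the 4 highest per kb at d0, and up to 4 per gene list with the largest change at day 4 against d0, of which 1 is not reported here. Sequences are those of the 8 named members with the highest motif score, read from RefSeq's GRCm38.p6. The members and lists were chosen with earlier results of these data known.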

Additional observations from a re-analysis of the deposited data

How the results depend on the processing

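No named region called at day 4 turned its direction under these alternatives, but the balance of rises and falls among the members did: with centred libraries or quantile normalisation falls outnumbered rises at day 1, day 2, day 4 and for XEN against 8 h, and with 0.15 RPM from day 4 to XEN cells. A single library could also turn it on the scale of the deposited RPM. Without 8 h library c, 29 members rose and 43 fell at day 4. Without the small XEN library, falls outnumbered rises from day 4 to XEN cells. In the averages against d0, a pseudocount of 0.006 RPM gave 164 members 2-fold higher at day 1, 473 higher and 12 lower at day 2 (median change 0.47), 159 and 51 at day 4 (0.09) and for XEN 323 and 16, and one of 0.15 RPM gave 0 at day 1 (0.12), 62 and 0 at day 2 (0.13), 9 and 0 at day 4 (0.02) and 3 and 0 in XEN cells (0.14). Centring on the median gave 2 higher at day 1 (-0.09), 48 and 264 at day 2 (-0.50), 16 and 173 at day 4 (-0.50) and for XEN 7 and 45 (-0.14). Quantile normalisation gave 2 (0.06), 44 and 45 (-0.17), 17 and 100 (-0.32) and 13 and 72 (-0.18), so that the sign of the medians depends on the scaling, at day 1 under centring alone. The filter on low values gave medians of 0.42 at day 2 and 0.09 at day 4, subtraction of the lowest value gave 0.36 at day 2 and 14 members lower in XEN cells, and members with recovered reads alone gave 21 (day 1), 165 (day 2), 39 (day 4) and 56 higher and 0 lower (XEN).

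In limma, 0.006 RPM gave 41 rises at day 1, 263 rises and 31 falls at day 2, 84 and 53 at day 4, and for XEN cells 120 and 9, and 0.15 RPM gave 0, 33 and 0, 5 and 1, 1 and 0, with 2 falls from day 2 to day 4 and 0 higher and 4 lower from day 4 to XEN cells. With 0.006 RPM, 624 of all 24753 regions fell at day 2, against 31 of 1070 members. From day 4 to XEN cells 1201 regions and 62 members rose. In both cases the share of members was then not below that of all regions. Rises at day 2 were 11061 regions and 263 members, where it stayed below. Centred libraries gave 1 fall at 16 h, 3 and 6 at day 1, 31 and 207 at day 2, 15 and 160 at day 4, 5 and 40 for XEN, and 2 and 23 from day 2 to day 4. Quantile normalisation gave 2 and 4 at 16 h, 3 and 4, 31 and 78, 18 and 125, 15 and 62 in the same order, and 12 falls from day 2 to day 4. Without a minimum change there were 269 and 21 at day 2, 73 and 40 at day 4 and 82 and 11 for XEN. The own variance of each region gave 0 rises at day 1, 4 falls from day 2 to day 4, and 22 higher and 7 lower from day 4 to XEN cells, and regions with shortened values gave 29 falls at day 4, 64 higher in XEN cells than at 8 h and 93 higher than at day 4. The cause of these shifts was not tested.

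Leaving out 1 library gave 0 to 0 calls at 16 h, 1 to 59 rises and 0 to 0 falls at day 1, 112 to 194 and 4 to 21 at day 2, 29 to 59 and 12 to 43 at day 4, 12 to 110 and 1 to 15 for XEN, 0 to 0 and 12 to 80 from day 2 to day 4, and 4 to 62 and 5 to 10 from day 4 to XEN cells. Of the named regions at day 4, Paqr5, Slc34a2, Oog4, Ptpn21, Htra1 and Cdrt4 passed the threshold in all 13 settings, and with 0.15 RPM Adgrl3 (0.70), Mgl2 (-0.90), Trabd2b (-0.56), Opcml (-0.61), Irx1 (-0.52), Apba2 (-0.59), Iqca (0.88) and Rgs12 (0.97) did not. Trabd2b was also lost with the own variance of each region, and Irx1 (-0.93) and Apba2 (-0.65) without day 4 library a. No paired analysis was possible because the averaged columns, and the libraries recovered from them, carry no replicate numbers, so the replicate block was not run.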

Other observations

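The 1227 members with a match to the OCT4:SOX2 motif had median changes of 0.25 (day 2) and 0.02 (day 4), and the 515 without one 0.52 and 0.16. By limma, 88 of 758 rose at day 2 with a match (11.6%) and 71 of 312 without one (22.8%). The members with a match were wider, at a median of 421 bp against 348 bp, and the part of width in this was not tested. Over all regions the medians at day 2 were 0.65 with and 0.77 without a match. Other GATA6-only classes had the same order. With and without a match, the Transient regions without marks had 0.09 and 0.28 and those at ES cell enhancers 0.03 and 0.29. The Late regions of facultative heterochromatin had 0.37 and 0.43. Members with and without a SOX17 motif match had 0.31 and 0.33 at day 2.

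The 53 members at promoters had median changes of 0.49 (day 2) and 0.26 (day 4), and 8 of the 39 tested rose at day 2 (20.5%), against 14.9% of all tested members and 36.9% of all tested regions. All 4006 regions at promoters had a median of 0.84 at day 2. The group with the highest average was day 2 for 590 members (33.9%) and XEN cells for 581 (33.4%), against 39.4% and 25.6% of all regions. The floor of the XEN average was 0.0133 RPM, against 0.00466 RPM at day 2, and this ranking was not corrected for it. With the lowest value subtracted, the median change of the members in XEN cells against d0 was 0.23 in place of 0.35.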
